A study of Mus musculus with 36 samples.

Results

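Expression of the CXC and CX3C chemokine genes was followed in mouse hippocampal slices that had or had not received theta-burst stimulation. The group holds 9 genes, chosen by name from a table of 55421 genes: the ligands Cxcl1, Cxcl2, Cxcl9, Cxcl10, Cxcl12, Cxcl14, Cxcl16 and Cx3cl1 and the receptor Cxcr4. All 9 passed the filter on low counts that left 19478 genes for testing. The slices came from the hippocampus of 18 mice, either C57BL/6 (WT) or T41B, the Thy1-hAPPLond/Swe Line 41 model in which the neuronal Thy1 promoter drives human amyloid precursor protein with the London and Swedish mutations. Mice were gavaged with vehicle or with BD10-2 (labelled PTX-BD10-2), which partially activates TrkB and TrkC, receptors for neurotrophins, for 3 months from an age of 13 months to 16 months. A slice then received theta-burst stimulation in 3 trains, with 10 bursts in a train and 4 pulses in a burst (100 Hz, bursts 200 ms apart), or a sham procedure of equal duration, and was frozen at once. The 36 libraries make 32 samples in 8 groups. Vehicle gave 4 WT and 4 T41B samples at each stimulation state, and BD10-2 gave 3 WT and 5 T41B samples at each. In 14 mice, a sham and a stimulated sample came from the same animal.

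Chemokines are small secreted or membrane-tethered proteins that bind G protein-coupled receptors and direct the movement of cells. Cxcl1 and Cxcl2 act through Cxcr2 and attract neutrophils, while Cxcl9 and Cxcl10 are induced by interferons and act through Cxcr3, chiefly on T cells. Cxcl12 acts through Cxcr4 and Ackr3 and serves cell positioning in the developing and adult brain. Cxcl16 and Cx3cl1 carry their chemokine domain on a membrane-anchored stalk that proteases can shed, and Cx3cl1 from neurons binds Cx3cr1 on microglia.

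The genes lie on several chromosomes of GRCm38.p6, by GENCODE release M21. On chromosome 5, Cxcl1 (chr5:90891241-90893115, plus strand) and Cxcl2 (chr5:90903871-90905938, plus strand) are 10755 bp apart, and Cxcl9 (chr5:92321347-92328079, minus strand) and Cxcl10 (chr5:92346638-92348889, minus strand) are 18558 bp apart. The others are Cxcl12 (chr6:117168535-117181367, plus strand), Cxcl14 (chr13:56288643-56296551, minus strand), Cxcl16 (chr11:70453983-70459984, minus strand), Cx3cl1 (chr8:94772009-94782427, plus strand) and Cxcr4 (chr1:128588199-128592293, minus strand). Art3 overlaps Cxcl10 and Zmynd15 overlaps Cxcl16, each on the opposite strand. Art3 averaged 1.16 CPM (counts scaled to library size) and Zmynd15 0.967 CPM over the libraries, and the strand setting of the counting is not given in the sources used here.

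RefSeq promoter sequences of build GRCm38.p6 were matched by symbol for 8 of the 9 genes, all but Cxcl16. The 5 printed here belong to the 4 chromosome 5 ligands and to Cxcl12. Cxcl1, Cxcl2 and Cxcl10 were called higher in stimulated slices in all 4 combinations of genotype and treatment and Cxcl9 in 1, while Cxcl12 was called lower in all 4. Each runs 5′ to 3′ on the gene's strand from 220 to 31 bases before the RefSeq start site, and capitals mark matches to the NF-kappaB consensus, the interferon element GAAANNGAA or the STAT element TTCNNNGAA on either strand. The regions are chr5:90891025-90891214 (plus strand) for Cxcl1, chr5:90903679-90903868 (plus) for Cxcl2, chr5:92328110-92328299 (minus) for Cxcl9, chr5:92348920-92349109 (minus) for Cxcl10 and chr6:117168315-117168504 (plus) for Cxcl12.
Cxcl1: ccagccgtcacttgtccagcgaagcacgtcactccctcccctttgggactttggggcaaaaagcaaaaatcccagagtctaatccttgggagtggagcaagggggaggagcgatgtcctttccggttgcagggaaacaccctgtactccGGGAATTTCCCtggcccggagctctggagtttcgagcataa
Cxcl2: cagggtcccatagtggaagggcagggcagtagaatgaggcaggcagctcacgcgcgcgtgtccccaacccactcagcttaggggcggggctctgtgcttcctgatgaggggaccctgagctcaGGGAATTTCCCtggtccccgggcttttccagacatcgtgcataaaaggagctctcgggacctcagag
Cxcl9: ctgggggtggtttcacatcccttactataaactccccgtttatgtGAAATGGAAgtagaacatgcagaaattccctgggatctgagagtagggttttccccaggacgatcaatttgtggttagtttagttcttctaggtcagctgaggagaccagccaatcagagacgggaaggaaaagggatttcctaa
Cxcl10: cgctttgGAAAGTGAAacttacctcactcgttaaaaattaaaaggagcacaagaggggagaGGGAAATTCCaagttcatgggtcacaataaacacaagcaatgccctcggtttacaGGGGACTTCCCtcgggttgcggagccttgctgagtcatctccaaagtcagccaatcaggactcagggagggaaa
Cxcl12: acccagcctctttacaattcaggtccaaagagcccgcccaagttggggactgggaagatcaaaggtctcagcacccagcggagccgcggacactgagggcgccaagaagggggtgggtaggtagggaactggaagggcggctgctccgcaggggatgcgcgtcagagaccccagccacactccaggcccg
Cxcl1 and Cxcl2 shared the same 11-base stretch, GGGAATTTCCC, which holds overlapping NF-kappaB matches starting at position -71 from the start site in Cxcl1 and at -97 in Cxcl2. Cxcl10 held an NF-kappaB match at -159, overlapping matches from -104, and an interferon element at -213. Cxcl9 held an interferon element at -175, and no searched letters were found in the window of Cxcl12. In the full 300-base windows, no match was found for Cx3cl1 or Cxcr4, and Cxcl14 held an interferon element and a STAT element. Of all 32851 RefSeq promoter windows of that length, 8.46% held an NF-kappaB match, 8.56% an interferon element and 8.3% a STAT element. A match describes the letters only.

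The libraries held 11597555 to 28125842 counts each (median 18082415). Thy1, whose promoter drives the transgene, stood at 253 to 403 CPM in the 16 WT libraries and at 917 to 2503 CPM in the 20 T41B libraries. The lowest T41B value was in a library labelled as a stimulated slice of Mouse1592, and the next lowest was 1017 CPM. Of 8 labelled batches, each held 1 treatment. Batch E held only WT mice and batches G and H only T41B mice, so genotype and batch cannot be told apart for those mice. Markers of choroid plexus, a tissue that borders the hippocampus, summed to over 100 CPM in 6 samples, all from vehicle-treated mice, among them 2 stimulated WT samples at 1193 and 976 CPM, while all other samples stayed at or below 28.2 CPM. The 6 samples came from Mouse1509 and Mouse1513 of batch E and from Mouse1551 and Mouse1553 of batch G. Neuronal markers summed to between 1828 and 3801 CPM in all samples. These are general neuronal genes and do not distinguish the hippocampus from other brain regions. Replicates within a group are different mice.

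Stimulated slices held several times more Cxcl1, Cxcl2, Cxcl10 and Cxcl16 RNA than sham slices in all 4 combinations of genotype and treatment, and less Cxcl12 RNA. Under vehicle in WT mice, 4 of the 9 genes were called higher (adjusted p under 0.05, edgeR's quasi-likelihood test with Benjamini-Hochberg adjustment over all tested genes), where 8.21% of all tested genes were, and 1 was called lower, where 4.1% were. The counts were 4 higher against a background of 6.29% and 1 lower against 2.58% in WT mice on BD10-2, 4 higher against 11.7% and 1 lower against 9.83% in T41B mice on vehicle, and 5 higher against 13.3% and 1 lower against 9.52% in T41B mice on BD10-2. The median log2 fold change of the 9 genes was 2.07, 1.28, 1.37 and 1.84 in that order, and that of all tested genes was -0.01, -0.01, -0.05 and -0.04. Since slices are bulk tissue, fewer cells of a type and less RNA per cell cannot be told apart in any value here.

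**Figure D1:**
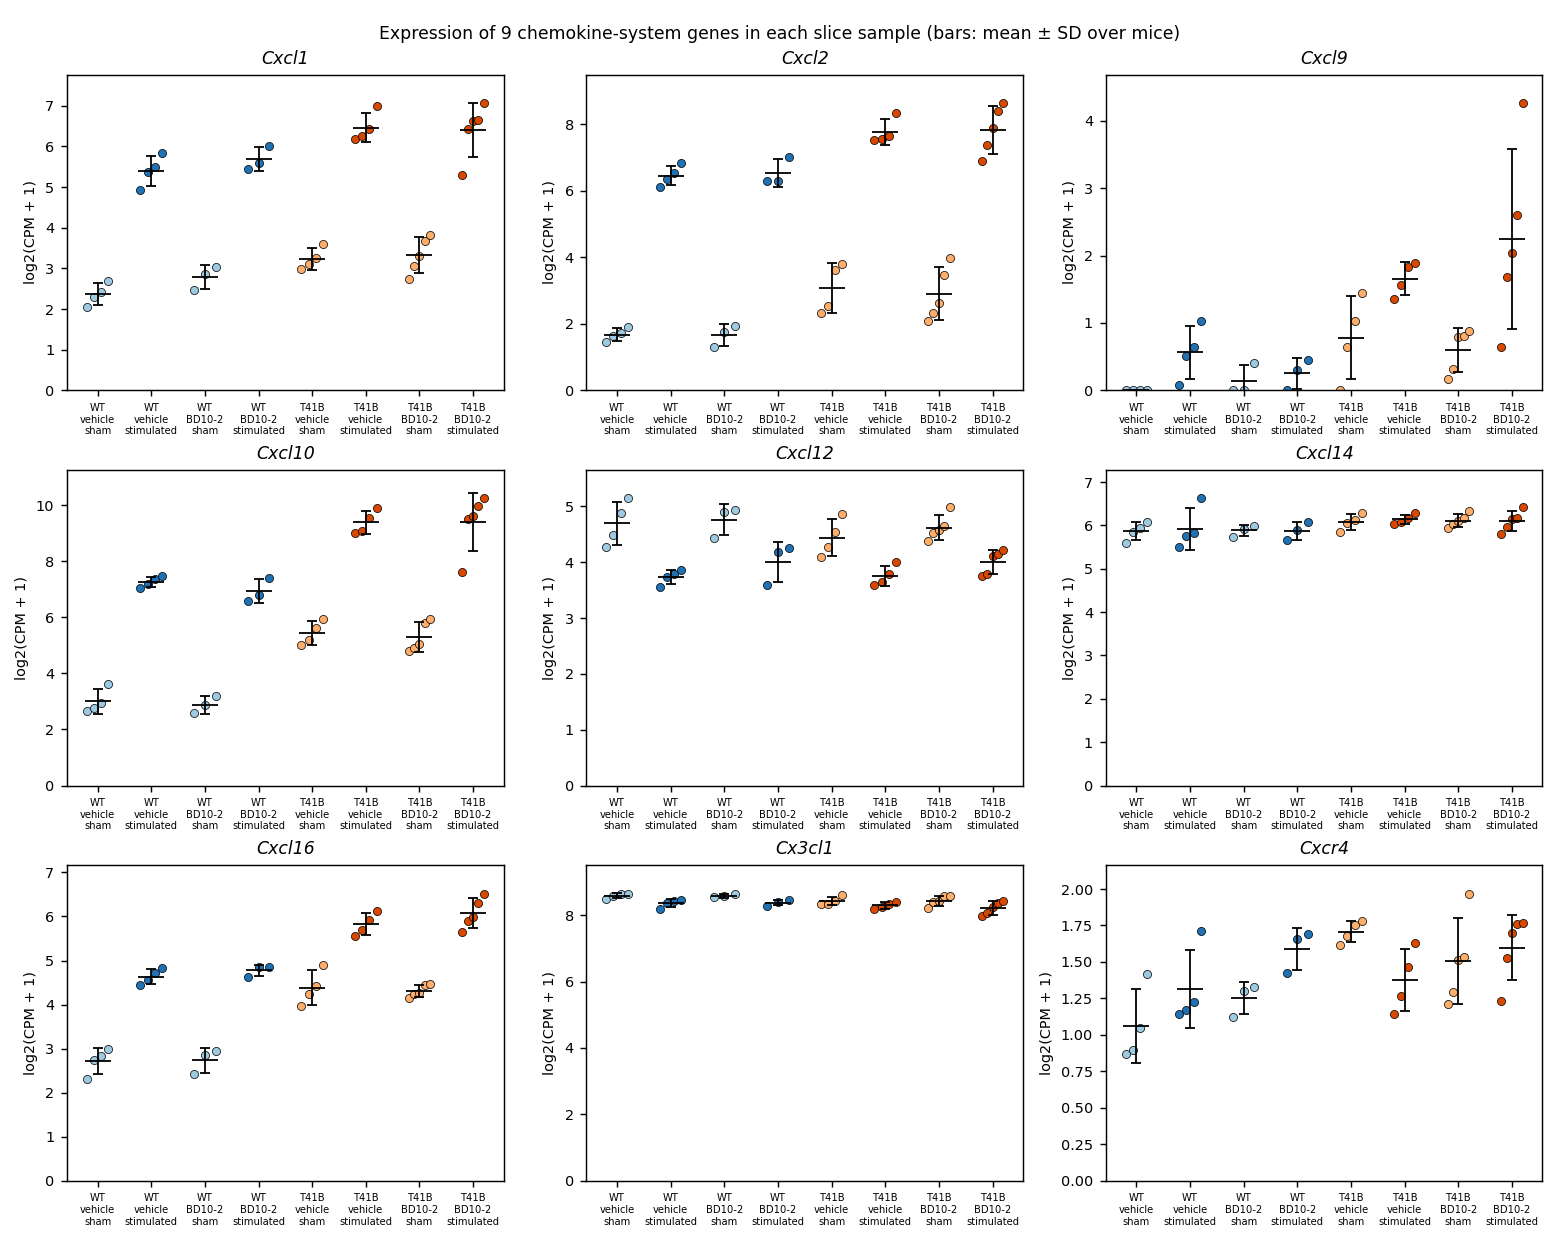
Level of each of the 9 genes as log2(CPM + 1) in every sample of the 8 groups; points are samples, horizontal bars group means and error bars SD over 3 to 5 mice. Stimulated groups (dark points) sit above sham groups (light points) for Cxcl1, Cxcl2, Cxcl10 and Cxcl16 and below them for Cxcl12, and T41B groups (orange) sit above the WT groups (blue) of the same stimulation state for Cxcl10 and Cxcl16.

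Cxcl1, a neutrophil attractant, stood at 4.39, 3.17, 5.47 and 3.93 CPM in the sham slices of vehicle-treated WT mice and at 55.8, 44.0, 40.1 and 29.4 CPM in their stimulated slices. In vehicle-treated T41B mice it stood at 8.63, 11.1, 7.60 and 6.88 CPM in sham slices and at 85.3, 125, 75.2 and 71.7 CPM in stimulated slices. Under BD10-2 the ranges were 4.49 to 7.15 (sham) and 42.6 to 63.3 CPM (stimulated) in WT mice and 5.72 to 13.2 and 38.4 to 132 CPM in T41B mice. Every stimulated sample exceeded every sham sample, with no overlap within any of the 4 combinations. It rose on the log2 scale by 3.32 (SE 0.31, adjusted p = 1.18e-08) in WT mice on vehicle, 3.09 (SE 0.34, adjusted p = 3.08e-07) in WT mice on BD10-2, 3.39 (SE 0.30, adjusted p = 1.57e-09) in T41B mice on vehicle and 3.28 (SE 0.26, adjusted p = 1.08e-10) in T41B mice on BD10-2.

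Cxcl2, the close relative of Cxcl1, attracts neutrophils, shares the promoter stretch printed above and had the highest fold with stimulation among the called members of the 9. Its level was 2.08, 2.31, 2.77 and 1.73 CPM in sham slices of vehicle-treated WT mice and 90.9, 68.6, 80.4 and 112 CPM in stimulated slices. In vehicle-treated T41B mice the sham values were 4.75, 11.3, 13.0 and 3.99 CPM and the stimulated values 184, 325, 185 and 200 CPM. Under BD10-2 it ranged from 1.46 to 2.82 (sham) and from 77.7 to 129 CPM (stimulated) in WT mice, and from 3.23 to 14.8 and from 117 to 394 CPM in T41B mice. The groups did not overlap. Stimulated slices were higher by 5.31 log2 units (SE 0.48, adjusted p = 5.52e-09), 5.40 (SE 0.54, adjusted p = 5.38e-08), 4.75 (SE 0.43, adjusted p = 2.91e-09) and 5.07 (SE 0.39, adjusted p = 5.33e-11) in WT vehicle, WT BD10-2, T41B vehicle and T41B BD10-2 mice. Without the 6 samples with over 100 CPM of choroid plexus markers, the T41B vehicle value was 5.46 and remained called.

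Cxcl10, an interferon-induced ligand of Cxcr3, was higher after stimulation in all 4 combinations. In vehicle-treated WT mice it stood at 5.81, 5.26, 11.4 and 6.76 CPM in sham slices and at 144, 132, 176 and 162 CPM in stimulated slices. In vehicle-treated T41B mice it stood at 31.2, 60.2, 47.6 and 35.9 CPM in sham slices and at 544, 747, 949 and 516 CPM in stimulated slices. The sham T41B level thus lay between the sham and the stimulated WT levels, with no overlap among these 4 groups. The log2 fold change with stimulation was 4.39 (SE 0.41, adjusted p = 1.07e-08), 4.27 (SE 0.47, adjusted p = 2.57e-07), 3.98 (SE 0.39, adjusted p = 8.07e-09) and 4.28 (SE 0.35, adjusted p = 1.49e-10), in the same order as above. WT mice on BD10-2 held 94.8 to 169 CPM when stimulated. Among stimulated T41B mice on BD10-2, Mouse1592 was low at 195 CPM against 997, 1204, 780 and 730 CPM in the other mice. Its libraries, which carry the same label, differed, with 69.2 CPM in the first and 300.4 CPM in the second.

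Cxcl9, the other interferon-induced Cxcr3 ligand of the set, was low, at or below 1.73 CPM in every WT sample and every sham sample. It had 0 counts in the sham slices of all 4 vehicle-treated WT mice and 0.417, 1.05, 0.562 and 0.0615 CPM in their stimulated slices. The stimulated mean was 2.76-fold a floor of 3 counts per library, which covers counting error only. The lowest stimulated sample, of Mouse1524, held 1 count. The difference was not called by edgeR (adjusted p = 0.0856) but was by DESeq2 (adjusted p = 0.00456). The edgeR fit called it in T41B mice on BD10-2, where sham slices held 0.129, 0.726, 0.751, 0.247 and 0.847 CPM and stimulated slices 2.19, 3.12, 5.07, 18.1 and 0.561 CPM. The log2 difference there was 3.45 (SE 0.79, adjusted p = 0.00198), and the groups overlapped at the stimulated sample of Mouse1592. The value was 2.34 without Mouse1572, the highest sample (adjusted p = 0.0231), 2.64 with batch as a covariate (adjusted p = 0.0400), and 1.71 with mouse as a block (adjusted p = 0.101), a fit to which Mouse1572, which has no sham slice, adds nothing. The main edgeR fit did not call Cxcl9 in WT mice on BD10-2 (1.28, adjusted p = 0.724) or in T41B mice on vehicle (1.37, adjusted p = 0.268), where the groups overlapped. Over the 14 mice with both slices, Cxcl9 was higher after stimulation in 12 and lower in 1.

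Cxcl16, a membrane-tethered ligand of Cxcr6, stood at 3.97, 5.69, 6.98 and 6.12 CPM in sham slices of vehicle-treated WT mice and at 25.1, 22.6, 20.8 and 27.3 CPM in stimulated slices. In vehicle-treated T41B mice the values were 14.6, 28.9, 20.6 and 18 CPM in sham and 45.9, 68.8, 59.4 and 51.0 CPM in stimulated slices. Under BD10-2 sham slices held 4.33 to 6.73 CPM in WT and 16.8 to 21 CPM in T41B mice. Under vehicle the sham T41B range reached into the stimulated WT range, and under BD10-2, where stimulated WT slices held 23.8 to 28 CPM, it did not. Sham and stimulated slices of the same genotype did not overlap. The stimulation difference was 2.07 on the log2 scale (SE 0.20, adjusted p = 2.24e-08), 2.19 (SE 0.23, adjusted p = 1.07e-07), 1.45 (SE 0.19, adjusted p = 8.79e-07) and 1.84 (SE 0.17, adjusted p = 9.74e-10).

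Cx3cl1, the neuronal ligand of Cx3cr1, was not called in any combination. In sham slices of vehicle-treated WT mice it ranged from 355 to 401 CPM, and in stimulated slices from 292 to 350.3 CPM. Those groups did not overlap, yet the log2 fold changes of -0.22, -0.20, -0.13 and -0.21 (SE 0.09, 0.11, 0.09 and 0.08) were not called. With mouse as a block, the value was -0.22 in WT mice on vehicle (adjusted p = 0.0310) and -0.26 in T41B mice on BD10-2 (adjusted p = 0.0111), both then called. Both were also called with batch as a covariate (adjusted p = 0.0469 and 0.0203). In T41B mice on BD10-2, Cx3cl1 was called as well with the second library of each same-label pair (adjusted p = 0.0345), without the samples that have 2 libraries (adjusted p = 0.0367), without the first stimulated library of Mouse1592 (adjusted p = 0.0333) and without Mouse1572 (adjusted p = 0.0478). Cx3cl1 was lower in the stimulated slice in 13 of 14 mice, with a median ratio of 0.853.

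Cxcl12, the Cxcr4 ligand, was the only one of the 9 genes called lower after stimulation. It stood at 28.5, 34.3, 21.5 and 18.3 CPM in sham slices and at 12.8, 13.5, 12.3 and 10.8 CPM in stimulated slices of vehicle-treated WT mice, without overlap. In T41B mice on BD10-2 it ranged from 19.8 to 30.6 CPM in sham and from 12.4 to 17.7 CPM in stimulated slices. The log2 fold change was -1.05 (SE 0.19, adjusted p = 2.65e-04), -0.79 (SE 0.22, adjusted p = 0.0189), -0.75 (SE 0.19, adjusted p = 0.00519) and -0.64 (SE 0.17, adjusted p = 0.00573). The stimulated slice was lower in 14 of 14 mice. The call in WT mice on BD10-2 was lost without Mouse1565 (-0.87, adjusted p = 0.0715), Mouse1571 (-0.78, adjusted p = 0.108) or Mouse1586 (-0.56, adjusted p = 0.165), and without the samples that have 2 libraries (-0.49, adjusted p = 0.319). The T41B vehicle call was lost without Mouse1551 (-0.58, adjusted p = 0.0703) and without the samples high in choroid plexus markers (-0.61, adjusted p = 0.213). The T41B BD10-2 call was lost without Mouse1570 (-0.48, adjusted p = 0.0700).

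Cxcl14, a constitutively expressed ligand, and Cxcr4 were not called with stimulation in any combination. Cxcl14 lay between 44.4 and 97.5 CPM in all samples, with log2 fold changes from -0.0048 to 0.11, and was higher in 7 and lower in 7 of 14 mice. Cxcr4 lay between 0.83 and 2.91 CPM, with log2 fold changes of 0.43, 0.55, -0.49 and 0.14. With batch as a covariate, Cxcr4 was called higher in WT mice on BD10-2 (0.82, adjusted p = 0.0454).

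**Figure D2:**
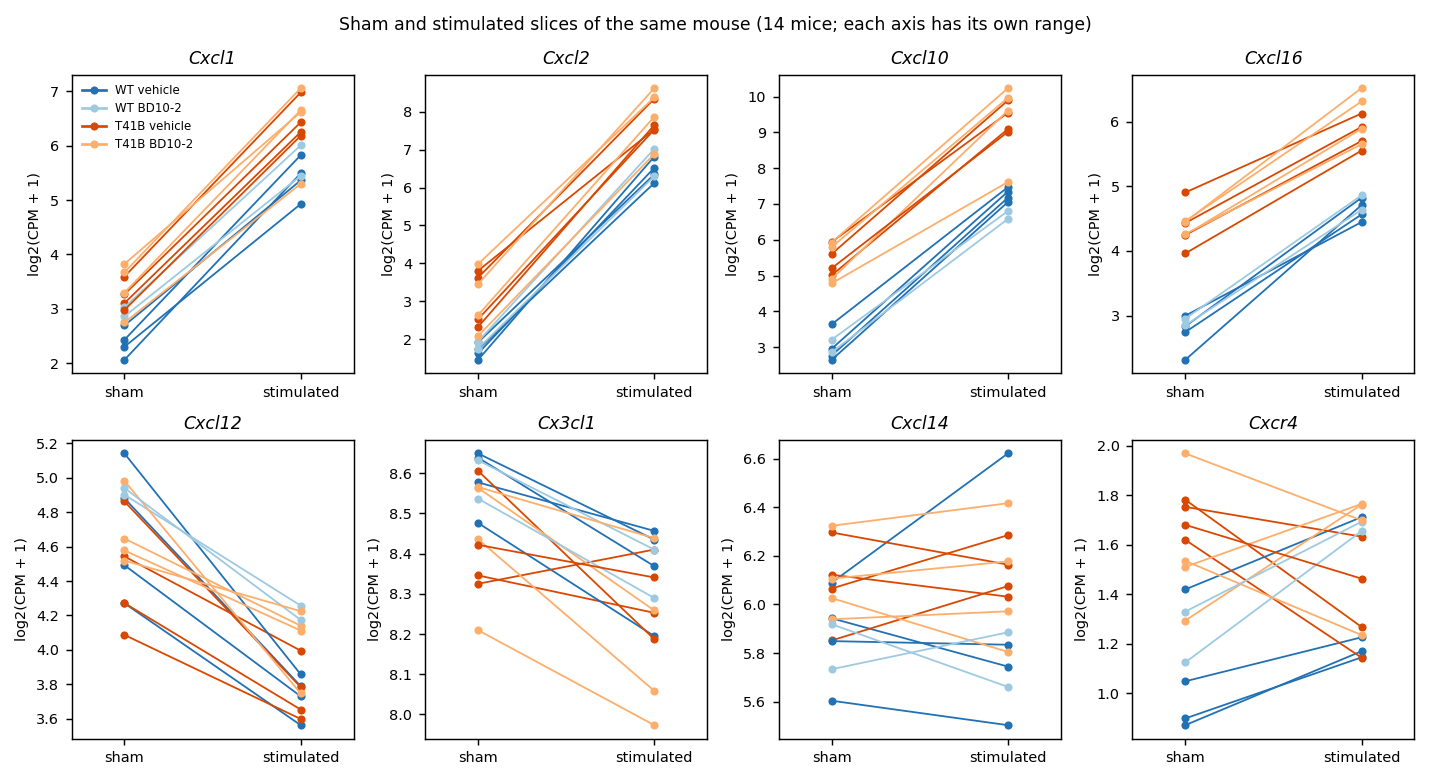
Sham and stimulated slices of the 14 mice that gave both, as log2(CPM + 1), for 8 of the genes; a line joins the slices of a mouse and each panel has its own range. All 14 lines go up for Cxcl1, Cxcl2, Cxcl10 and Cxcl16, all 14 go down for Cxcl12, and 13 go down for Cx3cl1.

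Within single mice, the stimulated-to-sham ratio of CPM had a median of 9.89 for Cxcl1 (6.71 to 13.9), 37.5 for Cxcl2 (14.3 to 64.6), 17.9 for Cxcl10 (7.34 to 26.9) and 3.49 for Cxcl16 (2.38 to 6.33). For Cxcl12 it was 0.609 (0.394 to 0.807). The lines joining slices of the same mouse show the same directions in every animal for these 5 genes.

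Levels of different genes are compared per kilobase of merged exons. In sham slices of vehicle-treated WT mice, Cx3cl1 held 97.6 ± 5.30 (SD, n = 4) CPM per kb and Cxcl14 31.7 ± 4.45, and every other member was at or below 3.25. After stimulation in vehicle-treated T41B mice, Cxcl10 stood highest at 306 ± 89.5 CPM per kb, followed by Cxcl2 at 108 ± 32.9, Cx3cl1 at 80.0 ± 5.44, Cxcl1 at 47.7 ± 13.1 and Cxcl14 at 38.1 ± 3.04. In stimulated slices of vehicle-treated WT mice the order was Cx3cl1 at 83.8 ± 6.70, Cxcl10 at 68.1 ± 8.69, Cxcl2 at 42.5 ± 8.89, Cxcl14 at 34.3 ± 13.0 and Cxcl1 at 22.6 ± 5.79. Neighbours whose mean ± SD overlapped were Cxcl2 with Cxcl14 and Cxcl14 with Cxcl1 in that WT group, and Cxcl2 with Cx3cl1 and Cxcl1 with Cxcl14 in the T41B group. Cxcl12, Cxcl16, Cxcr4 and Cxcl9 stood at or below 18.6 CPM per kb in both groups.

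Of 18 further CXC, CX3C and XC family genes, 10 passed the filter. Cxcr5, Cxcr6, Cxcl13 and Pf4 had their highest group means in stimulated T41B slices under BD10-2, so passing the filter leaned on that group. In comparisons that use it, calls of these genes and counts over the 10 genes are partly set by the filter. Stimulation raised 4, 3, 4 and 7 of the 10 genes and lowered 1 in each combination, in the order given above. The shares of all tested genes were 8.21%, 6.29%, 11.7% and 13.3% higher and 4.1%, 2.58%, 9.83% and 9.52% lower, so that 1 of 10 lowered is near the background in T41B mice. Cxcl3, a further Cxcr2 ligand, was raised in all 4, from 0.0144 ± 0.0289 to 0.897 ± 0.237 CPM in vehicle-treated WT mice, at least 4.75-fold, and from 0.160 ± 0.143 to 6.16 ± 1.71 CPM in vehicle-treated T41B mice (SD, n = 4 each). Cxcl11, another Cxcr3 ligand, was also raised in all 4, from 0.0542 ± 0.0432 to 3.12 ± 0.716 CPM in vehicle-treated T41B mice, at least 19.1-fold. Cxcr5, the receptor for Cxcl13, was raised in 3 of 4, to 0.726 ± 0.288 CPM in vehicle-treated T41B mice. Cxcl5, also a Cxcr2 ligand, was called higher in WT mice on vehicle (log2 fold change 2.08, adjusted p = 0.0108) and T41B mice on BD10-2 (0.96, adjusted p = 0.0415). Pf4, a platelet chemokine, was called higher in T41B mice on BD10-2 (1.65, adjusted p = 0.0423), at 0.530 ± 0.418 CPM after stimulation (SD, n = 5). That call is partly set by the filter, as stated above. Cxcl13 was not called with stimulation in any combination. The lowered gene was in each case Cx3cr1, the receptor for Cx3cl1 on microglia. It went from 38.3 ± 5.7 to 8.59 ± 1.24 CPM in vehicle-treated WT mice and from 79.7 ± 22.2 to 13.9 ± 3.09 CPM in T41B mice on vehicle, and its log2 fold changes were -2.16, -2.46, -2.53 and -2.29.

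The receptors Cxcr2, Cxcr3 and Cxcr6 were at low levels. Cxcr2, the receptor for Cxcl1, Cxcl2 and Cxcl3, had group means of at most 0.0281 CPM, and Cxcr3 had group means of at most 0.175 CPM, and neither passed the filter. Cxcr6, the receptor for Cxcl16, passed it and was called higher after stimulation in T41B mice on BD10-2 (log2 fold change 2.84, adjusted p = 2.40e-04), from 0.0623 ± 0.0675 to 0.558 ± 0.216 CPM (SD, n = 5 each). That call is partly set by the filter, since passing it leaned on those stimulated slices. Cxcr6 was also called in WT mice on vehicle (adjusted p = 0.0323), with 0 counts in sham slices and 0.119 ± 0.0923 CPM in stimulated slices (SD, n = 4), which is under the floor of 3 counts per library. Ackr1, a scavenging receptor of venules, was raised in T41B mice on vehicle (log2 fold change 0.80) and on BD10-2 (0.65), and Ackr3, the atypical Cxcl12 receptor, was not called in any combination and lay between 5.29 and 10.7 CPM.

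All 18 processing and signalling partners on the list passed the filter. Stimulation raised 5, 2, 3 and 5 and lowered 0, 0, 0 and 2, with a median log2 fold change of 0.14, 0.07, -0.05 and 0.09. Of all tested genes, 8.21%, 6.29%, 11.7% and 13.3% were called higher and 4.1%, 2.58%, 9.83% and 9.52% lower, so several of these counts lie near the background. Rgs16, which shuts off G protein signalling, was raised in all 4 combinations (1.43, 1.47, 2.31 and 2.05), from 4.86 ± 1.01 to 13.1 ± 2.38 CPM in vehicle-treated WT mice (SD, n = 4). Rgs1, of the same family, was raised in 3 (1.92, 1.49 and 1.56) and stood at 0.47 in T41B mice on vehicle. Grk5, a receptor kinase, was raised in 3 (0.47, 0.84 and 0.56), and the G protein subunit Gnai3 in 2 (0.48 and 0.46).

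Markers of some cell types moved with stimulation too. Of 8 microglial markers, 6, 7, 7 and 7 were called lower, and their summed level had a median of 231 CPM (217 to 276) in sham and 128 CPM (103 to 167) in stimulated slices of vehicle-treated WT mice, and of 577 CPM (450 to 786) and 270.2 CPM (240 to 333) in those of vehicle-treated T41B mice. None of 5 neutrophil markers passed the filter and their sum stayed at or below 0.397 CPM in every sample. T cell markers summed to at most 1.93 CPM. Of 4 endothelial markers, 1, 1, 2 and 2 were called higher, and of 5 astrocyte markers 3, 0, 3 and 3. Called lower were 1, 1, 0 and 2 of 5 neuronal markers and 0, 1, 0 and 1 of 4 markers of fibroblasts and meninges. The same counts were 0, 0, 1 and 2 of 6 markers of CGE interneurons and 0, 0, 1 and 1 of the 3 Cajal-Retzius markers that passed the filter. They were 1, 0, 0 and 1 of 5 markers of pericytes and smooth muscle and 0, 0, 1 and 0 of 4 oligodendrocyte markers. Of all tested genes, 8.21%, 6.29%, 11.7% and 13.3% were called higher and 4.1%, 2.58%, 9.83% and 9.52% lower. Several of the smaller counts in these short lists lie near that background. All 5 choroid plexus markers were called higher in WT mice on vehicle and 0 in the other combinations. The part of any of these cell types in the chemokine differences was not tested. Without the samples high in choroid plexus markers, Cxcl1, Cxcl2, Cxcl10 and Cxcl16 remained called in all 4 combinations.

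T41B slices held more Cxcl10 and Cxcl16 RNA than WT slices whether sham or stimulated, under vehicle or BD10-2, and more Cxcl2. Under vehicle, 4 of the 9 genes were called higher in T41B sham slices (Cxcl2, Cxcl10, Cxcl16 and Cxcr4), where 5% of all tested genes were, and 0 lower, where 1.24% were. In stimulated slices under vehicle 4 were called higher (Cxcl1, Cxcl2, Cxcl10 and Cxcl16), against 4.74%, and 0 lower, against 1.05%. Under BD10-2 3 were called higher in sham slices (Cxcl2, Cxcl10 and Cxcl16), against 4.31%, and 0 lower, against 1.14%, and 4 were called higher in stimulated slices (Cxcl2, Cxcl9, Cxcl10 and Cxcl16), against 8.19%, and 0 lower, against 2.36%. The median log2 fold change of the 9 genes was 1.02, 1.08, 0.63 and 0.82, and that of all tested genes was 0.0014, -0.03, 0.0071 and -0.02. Sham and stimulated comparisons draw on largely the same mice and are not independent of each other. These and the stimulation comparisons also share samples.

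Cxcl10 had the largest called difference of the 9 genes under vehicle. It was higher in T41B mice by 2.58 (SE 0.39, adjusted p = 6.15e-05) in sham and 2.17 (SE 0.35, adjusted p = 1.67e-04) in stimulated slices under vehicle, and 2.64 (SE 0.42, adjusted p = 1.30e-04) and 2.64 (SE 0.40, adjusted p = 2.67e-05) under BD10-2. In sham slices under BD10-2, Cxcl10 stood at 6.26, 8.25 and 4.98 CPM in WT mice and at 31.8, 54.5, 59.7, 29 and 26.5 CPM in T41B mice. No T41B sample overlapped the WT samples of its treatment and stimulation in any of the 4 comparisons. Under vehicle in stimulated slices, the value was 1.58 with batch as a covariate (adjusted p = 7.71e-04), and 1.66 and not called (adjusted p = 0.118) without the samples high in choroid plexus markers, which leaves 2 mice in each of those groups.

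Cxcl16 differed by 1.85 (SE 0.20, adjusted p = 4.61e-07) in sham and 1.23 (SE 0.18, adjusted p = 5.32e-05) in stimulated slices under vehicle, and by 1.71 (SE 0.21, adjusted p = 4.11e-06) and 1.35 (SE 0.20, adjusted p = 1.72e-05) under BD10-2. In stimulated slices under BD10-2, WT mice held 23.8, 28 and 27.7 CPM and T41B mice 78.4, 90.7, 58.3, 62.9 and 49.2 CPM. The genotypes did not overlap in any comparison, and all 4 calls held in all 19 alternatives.

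Cxcl2 differed by 1.91 (SE 0.49, adjusted p = 0.0164), 1.35 (SE 0.37, adjusted p = 0.0226), 1.72 (SE 0.49, adjusted p = 0.0352) and 1.39 (SE 0.39, adjusted p = 0.0182), in the order vehicle sham, vehicle stimulated, BD10-2 sham and BD10-2 stimulated. The genotypes overlapped only in the last, where T41B mice ranged from 117 to 394 CPM and WT mice from 77.7 to 129 CPM. Under vehicle, T41B sham slices held 11.3 and 13.0 CPM in batch G, which had no WT mice. They held 4.75 and 3.99 CPM in batches A and C, which had both genotypes. The calls were less firm than those of Cxcl10 and held in 14, 13, 12 and 16 of 19 alternatives. In vehicle sham slices the call was lost without Mouse1509 (1.88, adjusted p = 0.0668), Mouse1551 (1.72, adjusted p = 0.0714) or Mouse1553 (1.61, adjusted p = 0.0942), with batch as a covariate (1.28, adjusted p = 0.0527) and without the samples high in choroid plexus markers (0.98, adjusted p = 0.836). In vehicle stimulated slices it was lost without Mouse1509, Mouse1513, Mouse1522 or Mouse1551 (1.36, 1.24, 1.3 and 1.11), with batch (0.84) and without the choroid-rich samples (1.01). In BD10-2 sham slices it was lost without Mouse1563, Mouse1564, Mouse1565, Mouse1571 or Mouse1590 (1.29, 1.59, 1.78, 1.86 and 1.53), and with the second library of each pair (1.52) or without the paired libraries (1.97). In BD10-2 stimulated slices it was lost without Mouse1564, Mouse1565 or Mouse1586 (1.16, 1.27 and 1.24).

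Cxcl1 differed less, by 1.01 (SE 0.32, adjusted p = 0.0582), 1.08 (SE 0.27, adjusted p = 0.0112), 0.63 (SE 0.31, adjusted p = 0.269) and 0.82 (SE 0.28, adjusted p = 0.0551), so that only stimulated slices under vehicle were called. That call was lost without Mouse1551 (0.87, adjusted p = 0.0782), without the choroid-rich samples (1.18, adjusted p = 0.141) and with the first library of each same-label pair (1.08, adjusted p = 0.0510). In BD10-2 stimulated slices, Cxcl1 was called without Mouse1592 (1.03, adjusted p = 0.00183) and without only its first library (0.87, adjusted p = 0.0210). It was also called there by DESeq2 (adjusted p = 0.0313), with batch as a covariate (adjusted p = 0.0416), with the second library of each same-label pair (adjusted p = 0.0453) and without the samples that have 2 libraries (adjusted p = 0.0345). Several alternatives called Cxcl1 in vehicle sham slices too, among them DESeq2 (adjusted p = 0.0131). Under vehicle the genotypes did not overlap in either sham or stimulated slices.

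Cxcl9 was called between genotypes in stimulated slices under BD10-2, with WT values of 0, 0.372 and 0.236 CPM and T41B values of 2.19, 3.12, 5.07, 18.1 and 0.561 CPM. T41B exceeded WT there by a log2 value of 4.87 (SE 1.09, adjusted p = 0.00316), or 3.77 without Mouse1572 (adjusted p = 0.0118). In vehicle sham slices, T41B mice held 0.563, 1.73, 0 and 1.05 CPM against 0 counts in all 4 WT mice, so the groups overlapped. The T41B mean was 4.42-fold the floor of 3 counts per library, which covers counting error only and not the spread of mice. The genotype difference was not called by edgeR (adjusted p = 0.0574). Several alternatives called it, among them DESeq2 (adjusted p = 0.00152), no filter on low counts (adjusted p = 0.0388), the second library of each same-label pair (adjusted p = 0.0475) and the fit without samples that have 2 libraries (adjusted p = 0.0325). In vehicle stimulated slices, T41B mice held 1.95, 2.55, 2.7 and 1.56 CPM, all above the WT values of at most 1.05 CPM. That difference of 2.05 (SE 0.89) was not called (adjusted p = 0.217), but was with only the groups compared (adjusted p = 0.0378). In BD10-2 sham slices the difference was 2.71 and was not called by edgeR (adjusted p = 0.303).

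Cxcr4 was called higher in T41B sham slices under vehicle, by 1.02 (SE 0.27, adjusted p = 0.0188), with 2.27 ± 0.165 CPM against 1.11 ± 0.391 CPM in WT mice (SD, n = 4 each) and no overlap. The other differences were 0.10, 0.45 and 0.04 and were not called. The call held in 12 of 19 alternatives and was lost without Mouse1509 (0.90, adjusted p = 0.0958), Mouse1513 (0.92, adjusted p = 0.0716), Mouse1522 (1.0, adjusted p = 0.0561) or Mouse1551 (1.0, adjusted p = 0.0566). It was also lost with batch as a covariate (0.79, adjusted p = 0.179), with only the groups compared (1.01, adjusted p = 0.0799) and without the choroid-rich samples (1.06, adjusted p = 0.142). Cxcl12, Cxcl14 and Cx3cl1 were not called between genotypes, with log2 fold changes from -0.27 to 0.03, from 0.15 to 0.24 and from -0.16 to -0.07. Cxcl14 was called in vehicle stimulated slices without Mouse1524 (0.46, adjusted p = 0.0307).

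**Figure D3:**
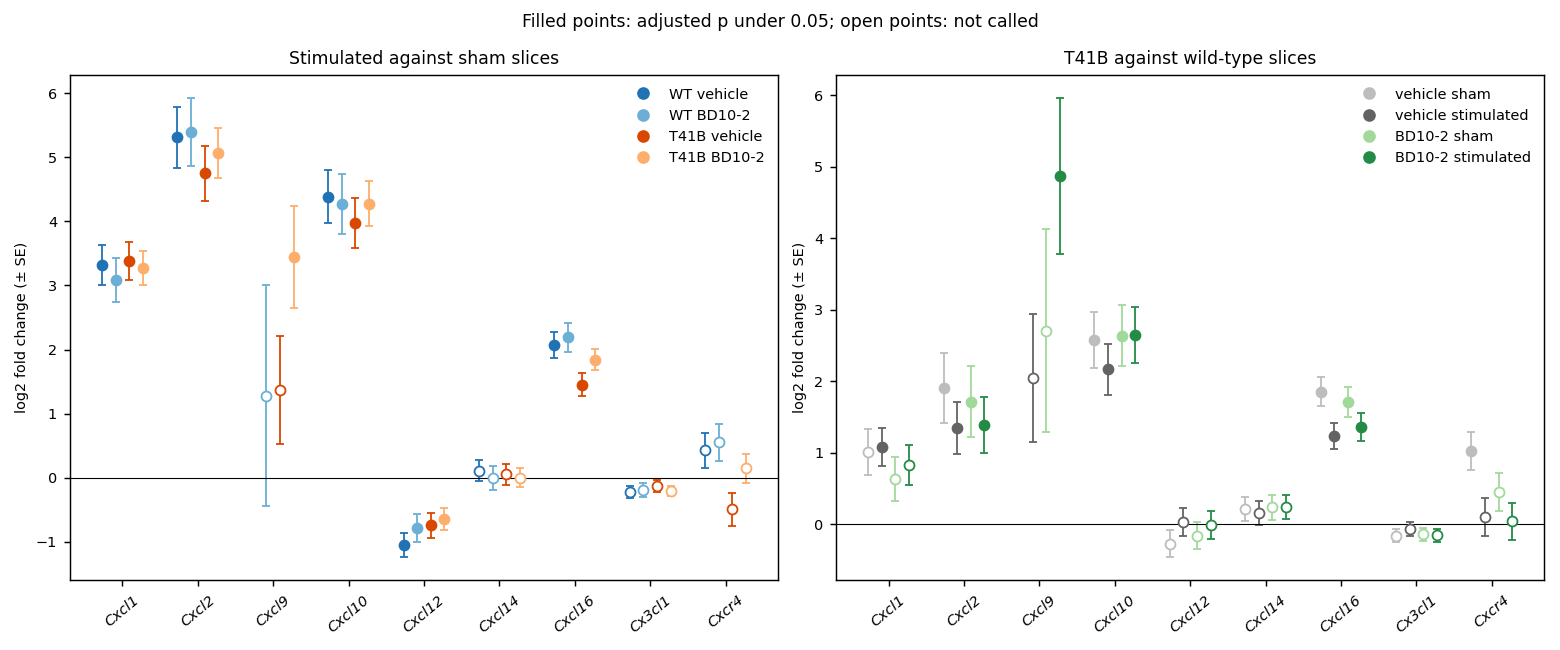
Log2 fold changes with SE for stimulation (left) and genotype (right); filled points have an adjusted p under 0.05, and the Cxcl9 values against groups with 0 counts are left out. Stimulation values for Cxcl2 lie between 4.75 and 5.40, those for Cxcl12 between -1.05 and -0.64, and the genotype values for Cxcl10 between 2.17 and 2.64.

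Within batches that held both genotypes, 7 comparisons of T41B with WT samples could be made on the log2(CPM + 1) scale, with 1 or 2 mice on each side. Batches A, C and I each entered as sham and as stimulated slices of largely the same mice, and batch D as sham slices only. The 7 comparisons are therefore not independent of each other. T41B was higher in 7 of 7 for Cxcl10 (by 1.37 to 2.87), Cxcl16 (0.88 to 1.85), Cxcl2 (0.61 to 1.18), Cxcl1 (0.29 to 1.26) and Cxcl9 (0.32 to 3.20). The smallest Cxcl9 difference, in batch I sham slices, set 0.247 CPM in T41B, at the floor of 3 counts, against 0 CPM in WT. Cx3cl1 was lower in T41B in all 7, by differences from -0.23 to -0.0033, and Cxcr4 was higher in 5 of 7. Cxcl12 was higher in 6 of 7 (-0.45 to 0.27), whereas its fitted difference was below 0 in 3 of the 4 comparisons, and Cxcl14 was higher in 5 of 7 (-0.34 to 0.24).

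T41B mice had 3, 2, 2 and 7 of the 10 further family genes called higher and 0 lower, the last in the comparison that uses the group on which the filter leaned. Cxcl5, a ligand of Cxcr2, was higher in sham slices under vehicle (2.60, from 0.278 ± 0.244 to 1.64 ± 0.633 CPM, SD, n = 4 each) and BD10-2 (2.79) and in stimulated slices of BD10-2-treated mice (2.36). Cx3cr1 was higher in the same 3 comparisons (1.06, 1.19 and 1.36). Cxcl3 and Cxcl11 were higher in stimulated slices under vehicle (2.75 and 2.55) and BD10-2 (3.55 and 3.08). Cxcr5 (2.19), Cxcr6 (2.28) and Cxcl13, the ligand of Cxcr5, were also called higher in stimulated slices under BD10-2. Their passing of the filter leaned on the T41B group of that comparison, so these calls are partly set by the filter. In that group Cxcl13 held 1.03 ± 1.02 CPM (SD, n = 5), with a range from 0 to 2.44 CPM. Its mean was 7.76-fold the floor of 3 counts per library in the WT group, which covers counting error only. Cxcr6 was called in sham slices under vehicle too, at 0.157 ± 0.0668 CPM in T41B mice (SD, n = 4) against 0 counts in WT mice, a level under the floor of 3 counts per library (0.189 CPM), so no fold is given. Pf4 and Ackr1 were not called between genotypes, nor was Ackr3. Among partners, 3, 2, 3 and 4 of 18 were called higher and 0 lower. Of all tested genes, 5%, 4.74%, 4.31% and 8.19% were called higher in these comparisons. Cd74, the invariant chain and a receptor for Mif that pairs with Cxcr4, was higher in all 4 (4.75, 2.75, 4.22 and 4.91), with 2.53 ± 0.801 CPM in WT and 68.7 ± 60.9 CPM in T41B sham slices under vehicle (SD, n = 4 each). Rgs1 (2.24, 1.46 and 1.52) and Gnai2 (0.45, 0.47 and 0.50) were higher in 3 comparisons, and Rgs16 in stimulated slices under vehicle (0.72) and BD10-2 (0.88).

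Microglial markers were called higher in T41B mice in 7, 3, 6 and 7 of 8 cases, and astrocyte markers in 2, 2, 2 and 5 of 5. Neuronal markers were called lower in 1, 2, 1 and 0 of 5 cases. Of 5 choroid plexus markers, 1 was called higher in vehicle sham slices and 1 lower in vehicle stimulated slices. Of all tested genes, 5%, 4.74%, 4.31% and 8.19% were called higher and 1.24%, 1.05%, 1.14% and 2.36% lower. The microglial sum in sham slices under vehicle was 450 to 786 CPM in T41B mice and 217 to 276 CPM in WT mice, without overlap. The part of these markers in the chemokine differences between genotypes was not tested. Neuronal markers summed to 2433 to 3203 CPM in T41B and 3145 to 3801 CPM in WT sham slices under vehicle.

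The stimulation response of T41B mice was set against that of WT mice by an interaction term in the same edgeR fit. None of the 9 genes was called under vehicle or BD10-2, where 0% of all tested genes were called. At an unadjusted p under 0.05, 2 of the 9 passed under vehicle, as did 1683 of all 19478 tested genes, and 0 of the 9 passed under BD10-2, where 846 of all tested genes did. DESeq2 called 0 of the 9 in either, and 1 and 18 genes over the whole table. The 2 members were Cxcl16, whose response was smaller in T41B mice by -0.62 on the log2 scale (95% interval -1.18 to -0.06, adjusted p = 0.529), and Cxcr4, which differed by -0.92 (95% interval -1.69 to -0.15, adjusted p = 0.521). For Cxcl10 the difference under vehicle was -0.41 (95% interval -1.46 to 0.64), for Cxcl1 0.07 (-0.79 to 0.93), for Cxcl2 -0.56 (-1.82 to 0.69) and for Cxcl12 0.30 (-0.25 to 0.86).

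BD10-2 against vehicle gave no called gene among the 9 in WT sham, WT stimulated, T41B sham or T41B stimulated slices, where 0% of all tested genes were called by edgeR. None of the 9 passed an unadjusted p under 0.05 in these 4 comparisons, where 374, 1093, 431 and 759 of all 19478 tested genes did. DESeq2 called 0 of the 9, and over the whole table it called 24 genes in WT stimulated slices and 0 in the other comparisons. In stimulated T41B slices, Cxcl10 stood at 689 ± 202 CPM (SD, n = 4) under vehicle and 781 ± 378 CPM (SD, n = 5) under BD10-2, a log2 fold change of 0.18 with a 95% interval from -0.48 to 0.84. Cxcl2 stood at 223 ± 68.0 and 248 ± 115 CPM (0.15, interval -0.54 to 0.85), Cxcl16 at 56.3 ± 10.1 and 67.9 ± 16.6 CPM (0.27, interval -0.08 to 0.62) and Cxcl1 at 89.4 ± 24.6 and 90.5 ± 34.1 CPM (0.01, interval -0.49 to 0.52). The narrowest intervals were those of Cx3cl1, for example -0.25 to 0.11 in stimulated T41B slices and -0.21 to 0.20 in WT sham slices. Each batch held 1 treatment, so treatment and batch cannot be told apart. The difference between treatments in the response to stimulation was likewise not called for any of the 9 genes in WT or T41B mice (0% of all tested genes). At an unadjusted p under 0.05, 0 of the 9 passed in either, against 337 and 526 of all tested genes, and DESeq2 called 0 of the 9.

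**Figure D4:**
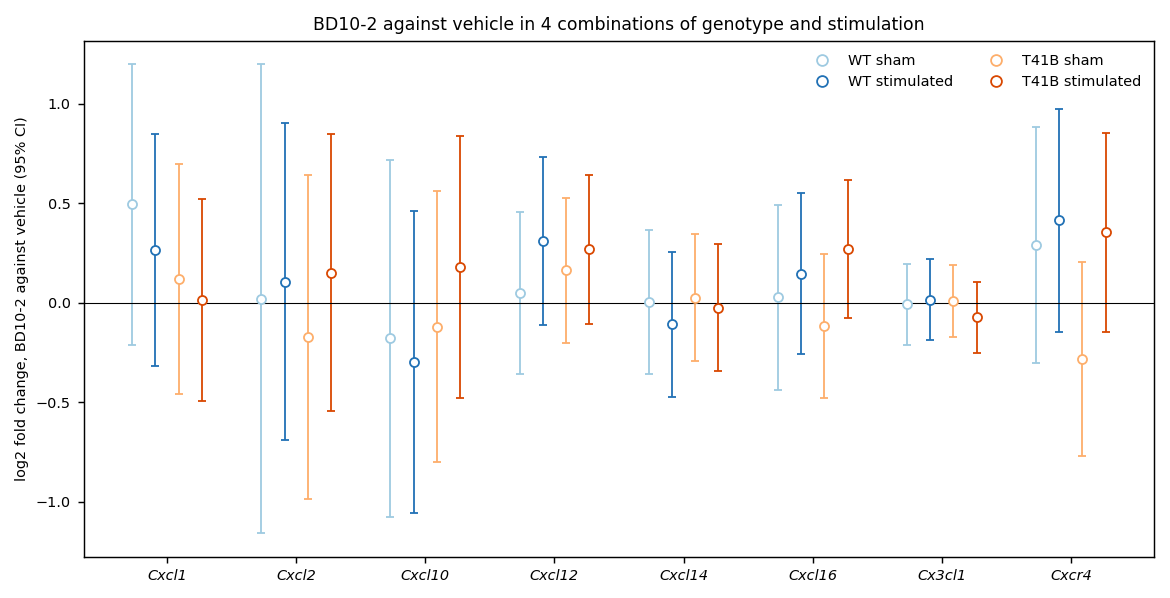
Log2 fold change of BD10-2 against vehicle with 95% confidence intervals for 8 of the genes in WT and T41B, sham and stimulated slices; Cxcl9 is left out because WT sham slices under vehicle had 0 counts. All 32 intervals include 0.

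Across the 32 samples, the genes whose log2(CPM + 1) followed each member most closely were listed by Pearson's r. These correlations describe samples that share mice, batches and the stimulation and genotype groups. Cxcl1 went with Ccl2 (0.987), Birc3 (0.986) and Vcam1 (0.986), and Cxcl2 with Tnfrsf1b (0.988), Oasl1 (0.987) and Lilr4b (0.987). Cxcl10 went with Irf1 (0.990), Irgm1 (0.988) and Slfn2 (0.987), and Cxcl9 with Gbp10 (0.914), Batf2 (0.890) and Ciita (0.874). Irf1 is a transcription factor of the interferon response and Ciita the activator of class II antigen presentation genes. Cxcl16 went with Pik3ap1 (0.989), Gpr84 (0.989) and Lcp2 (0.989), which are genes of myeloid cells. Cxcl12 went with Tubgcp4 (0.902), Gm44242 (0.880) and Gm38029 (0.875), and Cxcl14 with Fbxo2 (0.930), Efhd2 (0.915) and Ckb (0.912). Cx3cl1 went with Slc12a5 (0.926), the neuronal chloride transporter, Creld1 (0.919) and Fam234b (0.914), and Cxcr4 less closely with Dnase2a (0.734), Nfya (0.730) and Tns3 (0.726).

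Among the members, Cxcl10 and Cxcl16 had r = 0.971 over all 32 samples, 0.977 over the 16 sham samples and 0.931 over the 16 stimulated samples. Cxcl1 and Cxcl2 had 0.985, 0.859 and 0.882 over the same sets. Cxcl12 and Cxcl10 had -0.764 over all samples, but -0.317 over sham and -0.118 over stimulated samples. Cxcl12 and Cxcr4, ligand and receptor, had -0.140, -0.394 and 0.519.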

How the data were processed

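Ribosome-depleted, stranded total RNA libraries of hippocampal slices were sequenced, per the labels' protocols. The authors deposited a table of expected counts per gene. The submitters' processing notes name cutadapt 1.8.1, STAR 2.7.6a, RSEM 1.3.1, featureCounts 1.6, SAMtools 1.11 and the builds GRCm38.p6 and mm10; the annotation release and the strand setting are not given in the sources used here. Of all cells, 5.69% held decimals, so the values were rounded to whole numbers. All columns were matched to a sample by name, and 55154 of 55421 gene IDs had a symbol.

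Groups, mice and batches came from the labels. Libraries with the same labels (4 pairs) were summed, giving 32 samples. Counts were fitted over all 8 groups with edgeR 4.0.16 in R 4.3.3 (TMM scaling, a filterByExpr minimum of 10, quasi-likelihood F test), and p-values were adjusted over 19478 genes by Benjamini-Hochberg, with a threshold of 0.05. CPM used TMM-scaled library sizes, with factors from 0.910 to 1.06. A floor of 3 counts corresponds to 0.0590 to 0.247 CPM and covers counting error only. The code was tested on simulated data. Alternatives were DESeq2 1.42.0, other scaling and filters, fits of only the groups compared, 1 library per same-label pair or none, mouse as a block, batch as a covariate and each mouse left out; the first stimulated library of Mouse1592 and the choroid-rich samples (over 100 CPM) were left out as alternatives chosen after seeing the data.

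All 9 members were tested in every comparison, and not every value that was not called is printed. Also reported were the family genes that passed the filter, up to 4 partners for each kind of comparison (called most often, then by mean absolute log2 fold change) and the 3 genes with the highest correlation to each member. The members and lists were chosen with earlier results of these data known. The mouse numbers pair the slices of 14 mice; deviations of paired samples from their group means had a mean correlation of 0.29 (0.0532 to 0.552).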

Additional observations from a re-analysis of the deposited data

Results flagged for a closer look

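Within groups of 4 to 5 samples, the gap between the most extreme sample and its nearest neighbour was compared with the range of the group, over 53 groups with differing values. In 3 of them a sample stood apart, and chance alone gives about 1 in 20 groups. Cxcl2 in stimulated slices of vehicle-treated T41B mice was highest in Mouse1551, at 325 CPM against 184 to 200 CPM in the other mice of the group. Cxcl10 in stimulated slices of T41B mice on BD10-2 was lowest in Mouse1592, at 195 CPM, where the other mice held 730 CPM or more. Cxcr4 in stimulated slices of vehicle-treated WT mice was highest in Mouse1524, at 2.27 CPM.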

How the results depend on the processing

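Calls for Cxcl1, Cxcl2, Cxcl10 and Cxcl16 with stimulation held in every alternative run (16 or 18 per comparison), and no called value changed sign. Of the 9 genes, the number called between genotypes in vehicle sham slices went from 4 to 2 with batch as a covariate and to 2 without the choroid-rich samples, and in vehicle stimulated slices from 4 to 1 without the choroid-rich samples, an alternative with 2 mice in 3 of the 4 vehicle groups. Leaving out single mice gave 2 to 5 calls in vehicle sham slices (2 without Mouse1509 or Mouse1551) and 2 to 5 in vehicle stimulated slices (2 without Mouse1551). With mouse as a block, pairing the slices of 14 mice, the genes called over the whole table with stimulation went from 2397 to 3906, 1727 to 1286, 4197 to 5743 and 4453 to 4656 (WT vehicle, WT BD10-2, T41B vehicle, T41B BD10-2); for the 9 genes, the block changed only the calls of Cxcl9 and Cx3cl1 given above. The treatment comparisons could not be fitted with batch. DESeq2 called Cxcl9 with stimulation in WT mice on vehicle (adjusted p = 0.00456), and Cxcl1 in vehicle sham slices between genotypes (1.01, adjusted p = 0.0131) and in BD10-2 stimulated slices (adjusted p = 0.0313), and Cxcl9 in vehicle sham slices (adjusted p = 0.00152). The cause of these changes was not tested. Cxcl9 had at most 18.1 CPM and Cxcr4 at most 2.91 CPM in any sample, against a floor of 3 counts per library at 0.0590 to 0.247 CPM.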
